A study of Mus musculus with 13 samples.

Results

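The matrix metalloproteinases described here are 8 genes, Mmp2, Mmp3, Mmp8, Mmp9, Mmp12, Mmp14, Mmp19 and Mmp25, chosen by symbol from the 31053 genes listed in a table of single-cell RNA counts from mouse lungs. Their levels were followed through 20856 cells, of 37344 barcodes in all, that belonged to libraries 1, 2, 3 and 7 and had at most 10% of their UMIs in mitochondrial genes. A UMI, or unique molecular identifier, marks 1 captured RNA molecule. By its labels the study holds 13 lung samples of Mus musculus. There is 1 sample each of asthma, PPE-emphysema, PPE-recovery and control, and there are 3 samples each of acute injury, Con and emphysema. The asthma model was made with ovalbumin, and PPE is porcine pancreatic elastase, given through the airways. The mice were of the C57BL/6 strain. The labels give no age, sex or dose for any sample. Each single-cell group was a single mouse, whose lungs were dissociated with proteases, so the values cover only cells that survived this treatment. The 9 samples of acute injury, Con and emphysema were not analysed here.

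The cell barcodes end in a library number from 1 to 7 and carry no group name. Hence no library could be assigned to asthma, PPE-emphysema, PPE-recovery or control, the table was treated as 1 pooled sample, and every value below is given by library number with no test between groups.

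Matrix metalloproteinases are secreted or membrane-bound enzymes that cut collagens, elastin, gelatin and other proteins of the extracellular matrix. They are made as inactive proenzymes, become active when the propeptide that blocks the catalytic zinc is removed, and are held in check by the tissue inhibitors of metalloproteinases (TIMPs). In the lung they are known for matrix turnover in repair and for the loss of elastic tissue in emphysema.

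The zinc is held by 3 histidines, and a glutamate beside the first of these takes part in catalysis. The 11 codons that encode this stretch are shown to compare the active site of the members. They were read from the GRCm38 genome along the coding sequence of each gene, with the codons of the 3 histidines and the glutamate in capitals.
Mmp2: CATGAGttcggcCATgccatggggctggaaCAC
Mmp9: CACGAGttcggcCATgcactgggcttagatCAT
Mmp3: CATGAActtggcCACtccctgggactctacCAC
Mmp8: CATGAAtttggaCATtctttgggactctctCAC
Mmp12: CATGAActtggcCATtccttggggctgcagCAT
Mmp14: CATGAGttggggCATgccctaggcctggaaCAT
Mmp25: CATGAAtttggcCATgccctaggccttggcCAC
Mmp19: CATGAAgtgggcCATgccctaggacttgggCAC
The members shared between 20 of 33 bases (Mmp3 with Mmp9, Mmp8 with Mmp9 and Mmp8 with Mmp14) and 29 of 33 bases (Mmp19 with Mmp25) in this stretch. It lies in coding exon sequence throughout: exon 8 of 13 in Mmp2 (chr8:92839279-92839311, plus strand) and in Mmp9 (chr2:164951133-164951165, plus strand), and exon 5 of 10 in Mmp3 (chr9:7449775-7449807, plus strand), Mmp8 (chr9:7563086-7563118, plus strand) and Mmp12 (chr9:7352914-7352946, plus strand). It is also in exon 5 of 10 in Mmp14 (chr14:54437627-54437659, plus strand) and Mmp25 (chr17:23632843-23632875, minus strand), and in exon 5 of 9 in Mmp19 (chr10:128795673-128795705, plus strand).

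Of the members, 3 lie near each other on chromosome 9. Mmp12 (chr9:7344381-7369499) lies 76.3 kb from Mmp3 (chr9:7445822-7455975), which lies 102 kb from Mmp8 (chr9:7558456-7568485), all on the plus strand. The others stand on 5 further chromosomes: Mmp2 at chr8:92827291-92853420, Mmp9 at chr2:164940780-164955850, Mmp14 at chr14:54431612-54445364, Mmp19 at chr10:128790910-128800824 and Mmp25 at chr17:23628311-23645277 on the minus strand. The bases upstream of the chromosome 9 members are shown because these genes of 1 region had different source cells in the data. They are the 250 bases before the start sites in the RefSeq windows (GRCm38.p6), with 2 start sites for Mmp12. The motif TGANTCA, read on both strands and known as a binding sequence of AP-1, is in capitals. No other motif was searched.
Mmp3 (chr9:7445572-7445821): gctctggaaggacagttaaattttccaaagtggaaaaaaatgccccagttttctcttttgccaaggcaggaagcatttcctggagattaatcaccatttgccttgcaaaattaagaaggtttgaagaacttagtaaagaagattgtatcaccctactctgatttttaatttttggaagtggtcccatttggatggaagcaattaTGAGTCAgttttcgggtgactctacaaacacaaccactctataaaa
Mmp8 (chr9:7558179-7558428): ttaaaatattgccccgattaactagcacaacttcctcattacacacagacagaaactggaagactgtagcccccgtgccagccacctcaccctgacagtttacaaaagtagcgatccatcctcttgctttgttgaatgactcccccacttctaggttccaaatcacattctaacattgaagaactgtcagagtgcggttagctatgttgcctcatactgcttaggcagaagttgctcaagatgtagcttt
Mmp12, first start (chr9:7344147-7344396): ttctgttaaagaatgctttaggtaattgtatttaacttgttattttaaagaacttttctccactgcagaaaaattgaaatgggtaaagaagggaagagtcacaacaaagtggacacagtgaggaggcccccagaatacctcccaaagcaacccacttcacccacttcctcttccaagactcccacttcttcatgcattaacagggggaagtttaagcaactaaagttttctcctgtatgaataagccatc
Mmp12, second start (chr9:7347124-7347373): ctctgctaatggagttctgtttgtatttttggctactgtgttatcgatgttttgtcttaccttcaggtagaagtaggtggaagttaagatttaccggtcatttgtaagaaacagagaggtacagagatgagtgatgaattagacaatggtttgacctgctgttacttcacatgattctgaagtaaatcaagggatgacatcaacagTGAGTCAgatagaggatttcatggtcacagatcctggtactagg
The motif began 46 bases before the start of Mmp3 and 44 bases before the second start of Mmp12. RefSeq windows were found for 5 of the 8 members, as 6 windows, and these 2 held the motif. Over the genome, 7.81% of 32851 windows of 300 bases held it.

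The 4 libraries held 4800, 7626, 5129 and 3301 cells in the order 1, 2, 3 and 7, with medians of 7233.5, 8363.5, 6800 and 6889 UMIs per cell and 199782940 UMIs in all. Between 6 and 17 barcodes were shared by any 2 of these libraries. Cells were grouped into 43 clusters without the Mmp and Timp genes, and 40 clusters were named as 24 classes from marker genes. Names are written as "-like" because no annotation of the cells was used. Fibroblast-like cells had 1687 CPM of the collagen gene Col1a1, where CPM is UMIs of a gene per 1000000 UMIs of the cells named, and neutrophil-like cells had 42046 CPM of S100a8. Lymphatic endothelial-like cells had 551 CPM of Prox1, and mature dendritic cell-like cells had 2162 CPM of Ccr7. The macrophages fell into alveolar macrophage-like cells, C1q macrophage-like cells, with 5032 CPM of C1qa, and Arg1 macrophage-like cells, with 1547 CPM of Arg1 against 17.5 CPM in the other named cells. In library 3 the 61 Arg1 macrophage-like cells held no Arg1 UMI, against 653, 679 and 2730 CPM in libraries 1, 2 and 7, so those cells go against their name. The eosinophil-like cells held few UMIs (median 566) and had 1060 CPM of Ccr3 but 11.8 CPM of Epx, a granule gene. Scrublet called 559 cells doublets (4, 421, 130 and 4 by library), and these stayed in unless stated. The calls were 0.083%, 5.52%, 2.53% and 0.121% of cells, against an expected rate of 5%. Leaving them out thus says little about doublets in libraries 1 and 7. Free RNA in droplets can give a UMI to any cell, so B cell-like cells, which are not known as a main source of these enzymes, are used as a background. Their median was 4215 UMIs, so they are not a background of like depth for the shallow eosinophil-like cells. Intervals are exact at 95% and cover counting error only, not differences between mice. Those of levels, shares of UMIs and their ratios count each UMI as independent and leave out differences between cells. They are thus too narrow where few cells hold most UMIs, as for Mmp12 and Mmp3. Since 3′ tags are counted, a level is not scaled by gene length and levels are compared between cells for 1 gene, not between genes.

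**Figure D1:**
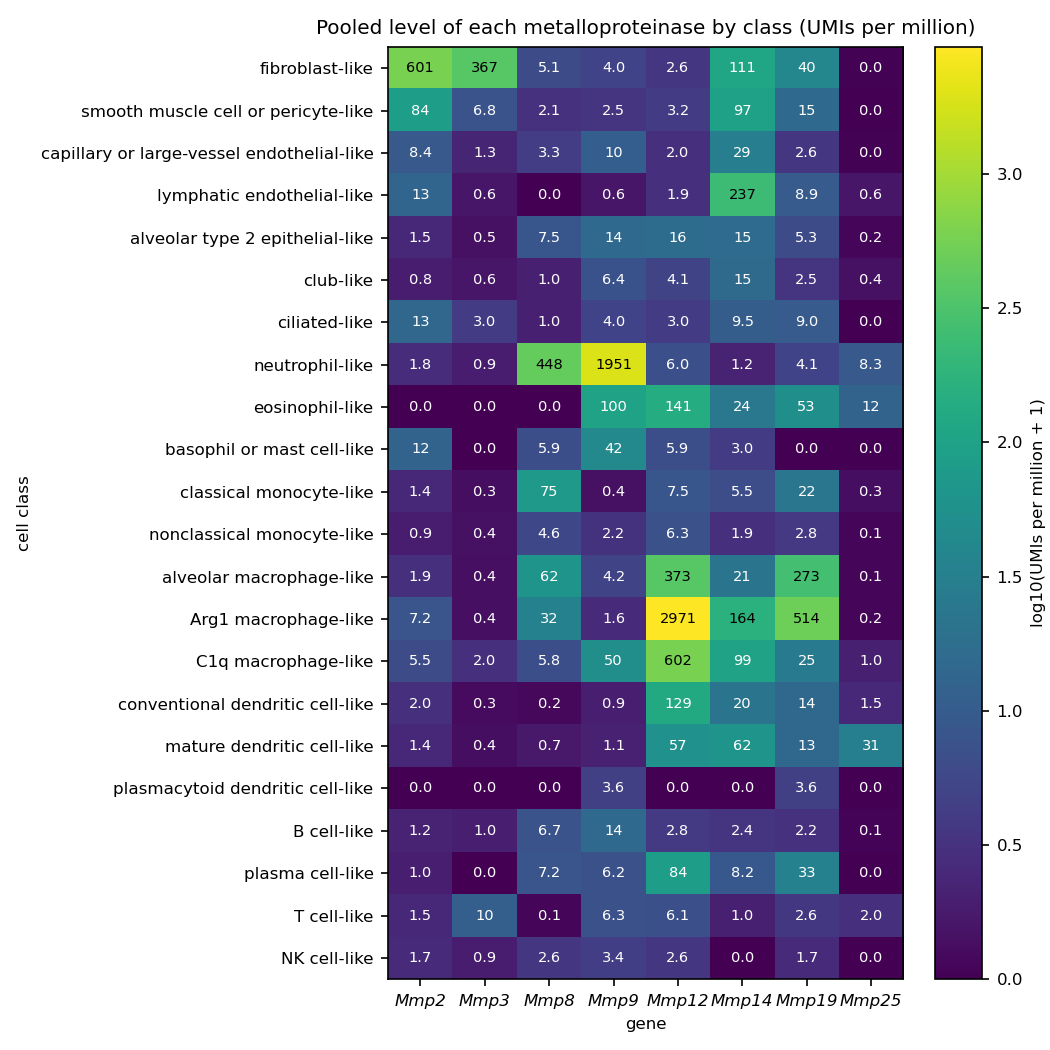
Level of each of the 8 genes (log10 of CPM + 1, color) in the 22 cell classes with at least 50 cells, over libraries 1, 2, 3 and 7. The highest levels stand in fibroblast-like cells for Mmp2 and Mmp3, in neutrophil-like cells for Mmp8 and Mmp9, in Arg1 macrophage-like cells for Mmp12 and Mmp19, in lymphatic endothelial-like cells for Mmp14 and in mature dendritic cell-like cells for Mmp25.

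Mmp2 and Mmp3 came mainly from fibroblast-like cells, Mmp9 from neutrophil-like cells, and Mmp12 and Mmp19 from macrophage-like cells. The UMIs of Mmp8 were divided among macrophage-like, neutrophil-like and monocyte-like cells, and Mmp14 came from several lineages at once. Per library, all cells counted, Mmp12 varied most among the 8 genes. Its level was 808, 52.9, 20.6 and 700 CPM in libraries 1, 2, 3 and 7, a ratio of highest to lowest of 39.3 (95% interval 36.8 to 42.0). Mmp2 was at 23.1, 123, 58.1 and 14.5 CPM and Mmp3 at 9.11, 54.0, 66.2 and 9.31 CPM. Both fibroblast genes were thus higher in libraries 2 and 3, whose fibroblast-like cells gave 16.9% and 13.0% of the UMIs, against 2.35% and 1.94% in libraries 1 and 7. Mmp9 was at 15.1, 41.6, 104 and 117 CPM, and neutrophil-like cells gave 0.711%, 1.98%, 5.06% and 4.71% of the UMIs, so both were higher in libraries 3 and 7. Mmp8 was at 33.4, 24.8, 42.5 and 63.4 CPM, Mmp14 at 76.0, 34.0, 20.3 and 48.3 CPM and Mmp19 at 117, 109, 45.3 and 208 CPM. Mmp25 was rare everywhere, with 1.13, 0.576, 1.0 and 1.92 CPM and 204 UMIs in all cells together. Levels over whole libraries move with the share of each cell class, so levels within a class are given next.

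The gelatinases are Mmp2 and Mmp9, which degrade denatured collagen and the type IV collagen of basement membranes. Mmp2 was a gene of fibroblast-like cells. Its level there was 805, 664, 426 and 598 CPM in libraries 1, 2, 3 and 7, from 92, 1076, 485 and 52 cells. Library 3 was lowest and library 1 highest, a ratio of 1.89. Pooled, the level was 601 CPM (591 to 612), 7.17 times (6.30 to 8.19) that of the next class, cells like smooth muscle or pericytes (83.9 CPM). A UMI of Mmp2 was found in 88.0% of the 1705 fibroblast-like cells, whose median was 5 UMIs, and these cells held 91.0% of all Mmp2 UMIs (8.82% with clusters from 15 principal components). The level was even across the class except in 1 cluster: it was 650 CPM in cluster 6, led by Inmt and Mfap4, 684 CPM in cluster 25, led by Lum and Pi16, and 227 CPM in cluster 28, led by Slc7a10 and Wnt2.

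Mmp9, stored in neutrophil granules, was a gene of neutrophil-like cells. Its level there was 1937, 1734, 1884 and 2259 CPM in libraries 1, 2, 3 and 7, from 109, 447, 598 and 484 cells, the most even level of the 7 members compared across libraries (ratio 1.30). Pooled, it was 1951 CPM (1914 to 1987), and 91.8% of neutrophil-like cells had a UMI of Mmp9. The next class, eosinophil-like cells, was at 100 CPM from 17 UMIs, a ratio of 19.5. In library 7, 13 of these UMIs lay in 12 cells. Whether they came from free RNA was not tested. C1q macrophage-like cells had 4.45, 93.7, 54.6 and 108 CPM by library, and B cell-like cells 14.2 CPM. The 145 Mmp9 UMIs of the B cell-like cells lay in 20 of 1513 cells, so this background was uneven and is not a measure of free RNA alone. Neutrophil-like cells held 88.8% of the Mmp9 UMIs, between 82.3% in library 2 and 91.5% in library 3. Within the class, Mmp9 was 2384 CPM in cluster 4, led by S100a9 and Retnlg, 890 CPM in cluster 29, led by Il1f9 and the chemokine gene Ccl4, and 620 CPM in cluster 34, led by Il1r2 and Stfa2l1. Cluster 34 had 766, 571, 609 and 776 CPM in libraries 1, 2, 3 and 7. Its cells were deeper, with a median of 9317 UMIs against 2796 in cluster 4 and 2425 in cluster 29. By markers cluster 34 scored 2.16 as neutrophils and next, at 1.73, as nonclassical monocytes. Whether its cells hold RNA of a second cell was not tested. Cluster 29 had 1252, 1540, 2111 and 642 CPM, and 111 of its 147 cells were from library 7.

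Mmp3, stromelysin-1, cuts many matrix proteins and can activate other proenzymes of the family. It had the fibroblast-like cells as its source in every library, at 381, 303, 496 and 466 CPM in libraries 1, 2, 3 and 7. Pooled, the level was 367 CPM (359 to 375), and this class held 96.0% of all Mmp3 UMIs (8.98% with 15 components). Unlike Mmp2, Mmp3 was concentrated in few cells: 27.9% of fibroblast-like cells had a UMI, the median was 0, the highest cell held 216, and 10% of the cells held 87.3% of the UMIs, against 35.0% for Mmp2. The level was 404 CPM in cluster 6, 438 CPM in cluster 25 and 76.4 CPM in cluster 28, so the same cluster was low for both genes. The next class, T cell-like cells, was at 10.4 CPM, where 1 cell held 86 of the 90 UMIs. Mmp3 was 423 CPM in fibroblast-like cells with at most 5% mitochondrial UMIs and 281 CPM in those above this limit, while Mmp2 was 609 and 590 CPM. For Mmp3 this order held in libraries 2, 3 and 7 but was reversed in library 1, at 153 and 560 CPM.

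Mmp8, neutrophil collagenase, cuts fibrillar collagens. Its highest level was in neutrophil-like cells, at 625, 313, 423 and 579 CPM in libraries 1, 2, 3 and 7. The pooled level was 448 CPM (431 to 466), with a UMI in 45.2% of the cells, and 6.01 times that of classical monocyte-like cells (74.6 CPM). The level and the source of the UMIs differed for Mmp8. Alveolar macrophage-like cells, at 62.0 CPM (81.1, 47.4, 54.8 and 79.95 by library), are numerous and deep, and held 41.3% of the Mmp8 UMIs against 34.2% in neutrophil-like cells and 11.8% in classical monocyte-like cells. When every cell counted alike, this order was reversed: neutrophil-like cells held 63.3% with cells thinned to 1000 UMIs and 63.0% as a mean of single-cell levels. The order also differed by library: the alveolar macrophage-like share was above the neutrophil-like share in libraries 1 (46.7% against 13.3%) and 2 (47.7% against 24.9%), and below it in libraries 3 (31.7% against 50.3%) and 7 (40.2% against 43.0%). B cell-like cells had 6.67 CPM, with 42 of 68 UMIs in 1 cell. Within neutrophil-like cells Mmp8 was 558 CPM in cluster 4, 152 CPM in cluster 34 and 67.7 CPM in cluster 29, so cluster 4 was highest for both neutrophil members. The greater depth and the second marker score of cluster 34, given for Mmp9, apply here too.

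**Figure D2:**
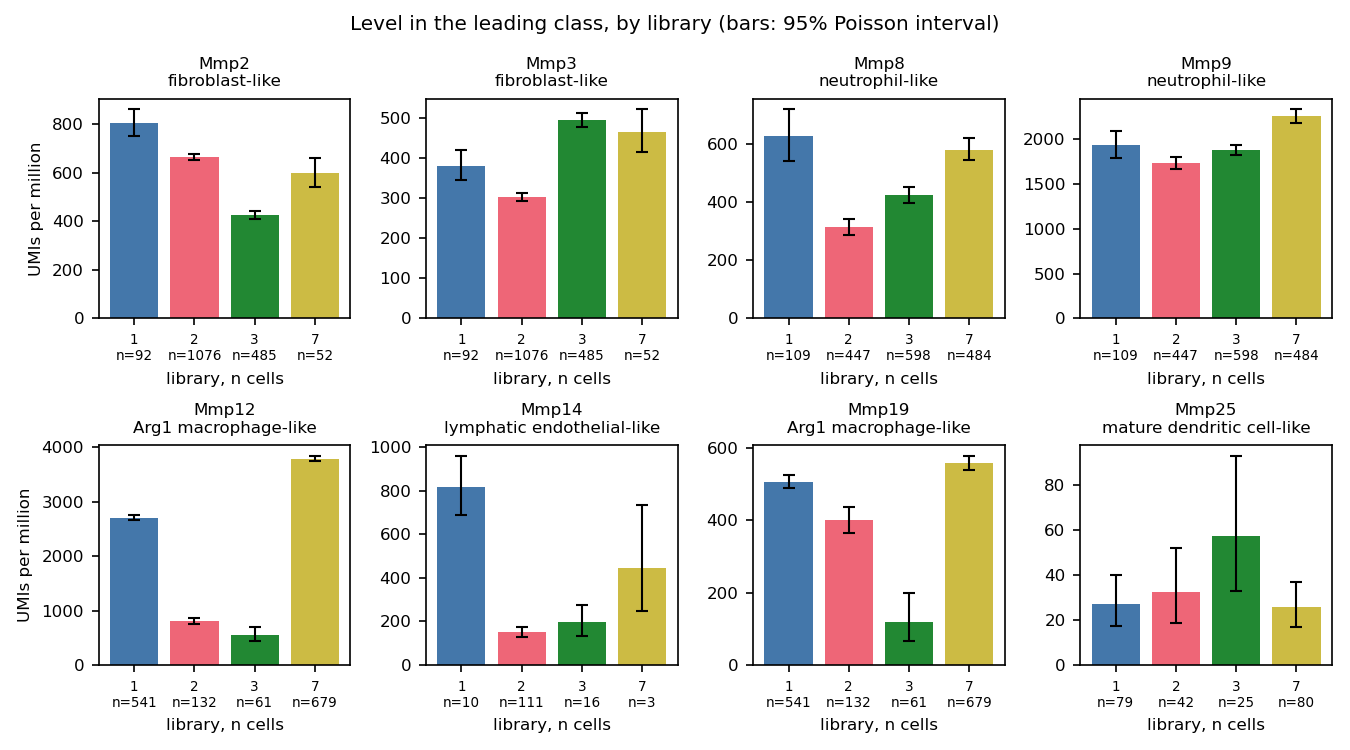
Level of each gene (CPM, linear axis from 0, own scale per panel) in its leading class, with 1 colored bar for each of libraries 1, 2, 3 and 7, its number of cells below it and its exact 95% Poisson interval as an error bar. Mmp9 spans 1734 to 2259 CPM in neutrophil-like cells, while Mmp12 spans 559 to 3792 CPM in Arg1 macrophage-like cells.

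Mmp12, macrophage elastase, degrades elastin and is known from smoke-induced emphysema in mice. Its highest level was in Arg1 macrophage-like cells, at 2706, 809, 559 and 3792 CPM in libraries 1, 2, 3 and 7, from 541, 132, 61 and 679 cells. Libraries 1 and 7, which held most cells of this class, stood above libraries 2 and 3, a ratio of 6.78 between highest and lowest. The 61 cells of library 3 that lacked Arg1 had a median of 698 UMIs, and without this library the ratio was 4.69 (4.40 to 5.004). Pooled, the level was 2971 CPM (2941 to 3001), 4.93 times that of C1q macrophage-like cells, and 58.0% of the cells had a UMI. The distribution was skewed: the median cell had 1 UMI, the highest 1337, and 10% of the cells held 72.8% of the UMIs. With a mitochondrial limit of 5% before clustering, the level of the class was 1058 CPM. At a finer clustering (resolution 1.5) 3 clusters took the name, with 811 cells led by Arg1 and Ccl24 at 4647 CPM of Mmp12, 624 cells led by Arg1 and Gpnmb at 1998 CPM and 1230 cells led by Syngr1 and Spp1 at 160 CPM, so the named class was wider than the 1413 cells described here.

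Mmp12 was also found in the other macrophages, in amounts that depended on the library. C1q macrophage-like cells, which carry complement C1q, had 849, 345, 397 and 618 CPM in libraries 1, 2, 3 and 7. Alveolar macrophage-like cells had 1780, 69.9, 13.8 and 142 CPM, so that library 1 was 129 times library 3. Of these cells, cluster 11 held 451 of its 600 cells in library 1 and had 2281, 176, 23.2 and 152 CPM. Cluster 1, whose 2414 cells came from all 4 libraries, had 662, 66.8, 13.9 and 134 CPM, so library 1 was highest and library 3 lowest in both clusters. In cluster 1 of library 1, 46.5% of cells had a UMI of Mmp12, against 7.20% in library 3. Conventional dendritic cell-like cells had 250, 53.1, 70.0 and 162 CPM, and B cell-like cells 2.84 CPM pooled. In sum over cells, Arg1 macrophage-like cells held 57.6% of the Mmp12 UMIs, alveolar macrophage-like cells 28.4% and C1q macrophage-like cells 7.99%. Without library 7 the first share was 40.3%. By library the source changed: Arg1 macrophage-like cells held 88.4% in library 7 and 42.9% in library 1, where alveolar macrophage-like cells held 42.3%. In library 2 alveolar macrophage-like cells led with 32.9%, against 24.3% in Arg1 macrophage-like and 23.8% in C1q macrophage-like cells. In library 3 C1q macrophage-like cells held the largest part, 49.7%. Eosinophil-like cells had 141 CPM from 24 UMIs, 13 of them in 1 cell and 10 of them in 10 cells of library 7. Whether these came from free RNA was not tested.

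**Figure D3:**
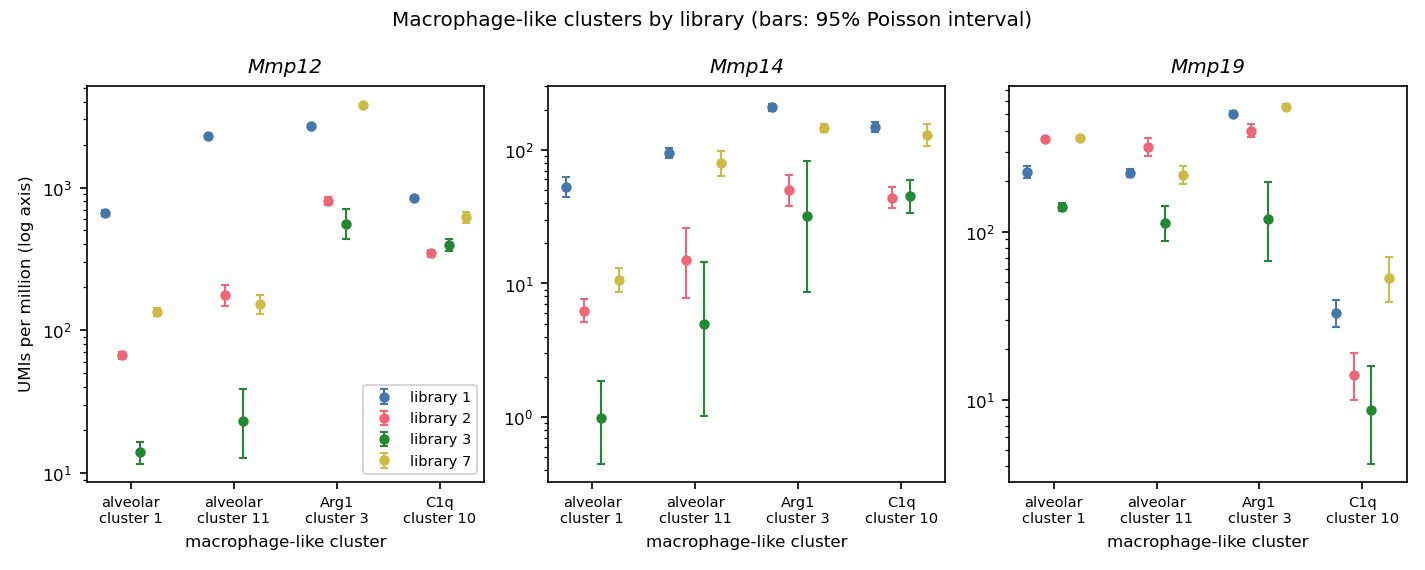
Mmp12, Mmp14 and Mmp19 (CPM, log axis) in the macrophage clusters of libraries 1, 2, 3 and 7, with exact 95% Poisson intervals. For Mmp12 in alveolar macrophage-like cluster 1, library 1 (662 CPM) stands above libraries 7 (134 CPM), 2 (66.8 CPM) and 3 (13.9 CPM), whereas Mmp19 in the same cluster spans 140 to 359 CPM.

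Mmp14, also called MT1-MMP, is anchored in the cell membrane by a transmembrane segment, cuts collagen at the cell surface and activates the proenzyme of Mmp2 together with TIMP2. It was the member with the broadest sources. The highest level, 237 CPM (213 to 262), was in lymphatic endothelial-like cells, but of these only library 2 had more than 20 cells (10, 111, 16 and 3 by library, with 816, 150, 196 and 444 CPM), and 10% of the cells held 54.4% of the UMIs. This lead was lost to fibroblast-like cells with 15 components, where the lymphatic level was 122 CPM, or with the mean of library levels, and to Arg1 macrophage-like cells with the mean of single-cell levels or without library 2. Arg1 macrophage-like cells followed at 164 CPM (208, 50.1, 31.97 and 145 by library), then fibroblast-like cells at 111 CPM (250, 107, 89.1 and 167), C1q macrophage-like cells at 98.8 CPM (148, 44.0, 45.0 and 130) and the smooth muscle or pericyte class at 97.0 CPM (170, 75.0, 90.2 and 265). The first was 1.45 times the second. In each of these 5 classes the levels of libraries 1 and 7 exceeded those of libraries 2 and 3, although libraries 1 and 7 held 10 and 3 of the lymphatic endothelial-like cells. The smooth muscle or pericyte class also had only 10 cells in library 7. The Arg1 macrophage-like level of library 3 came from 4 UMIs in 2 of the 61 cells that go against their name. Alveolar macrophage-like cells ranged from 80.5 CPM in library 1 to 1.18 CPM in library 3, a ratio of 68.4. Cluster 1 alone had 52.8 CPM in library 1 and 0.981 CPM in library 3. B cell-like cells had 2.35 CPM. The UMIs of Mmp14 lay in fibroblast-like cells (26.6%), Arg1 macrophage-like cells (24.1%), alveolar macrophage-like cells (12.0%) and C1q macrophage-like cells (9.93%), with 53.2% and 57.1% in fibroblast-like cells in libraries 2 and 3 and 35.1% and 49.0% in Arg1 macrophage-like cells in libraries 1 and 7.

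Mmp25, also called MT6-MMP or leukolysin, is held in the membrane by a lipid anchor and is known from leukocytes. It was sparse. Its highest level was in mature dendritic cell-like cells, at 27.0, 32.4, 57.3 and 25.7 CPM in libraries 1, 2, 3 and 7, from 79, 42, 25 and 80 cells. Pooled, this was 30.5 CPM (24.4 to 37.7) from 85 UMIs, and 27.0% of the cells had a UMI. Eosinophil-like cells followed with 2 UMIs (11.8 CPM), and the ratio of 2.59 had an interval of 0.695 to 21.7, so the order of these classes was not set at this depth. Neutrophil-like cells had 47 UMIs (8.29 CPM), with a UMI in 2.75% of the cells. No cell held more than 3 UMIs.

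Mmp19 cuts several basement membrane components and, like Mmp12, was a macrophage gene. Arg1 macrophage-like cells had 506, 400, 120 and 557 CPM in libraries 1, 2, 3 and 7, and 514 CPM (501 to 526) pooled. The ratio of highest to lowest was 4.64, but 1.39 (1.27 to 1.54) without library 3, so its spread rested on the cells of that library. Alveolar macrophage-like cells had 218, 340, 131 and 346 CPM and 273 CPM pooled, with a UMI in 74.9% of the cells, and the first class was 1.88 times this one. Since the alveolar macrophage-like cells gave more UMIs, they held 59.9% of the Mmp19 UMIs and Arg1 macrophage-like cells 28.7%, with the latter ahead in library 1 only (55.5% against 35.8%). The Arg1 macrophage-like share was 64.6% with Mmp and Timp genes kept for clustering, 63.9% at a resolution of 1.5 and 60.9% with a mitochondrial limit of 5%, so which class held most depended on the clustering. C1q macrophage-like cells, in contrast with Mmp12, had 32.7, 13.9, 8.66 and 52.8 CPM, and B cell-like cells 2.16 CPM.

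**Figure D4:**
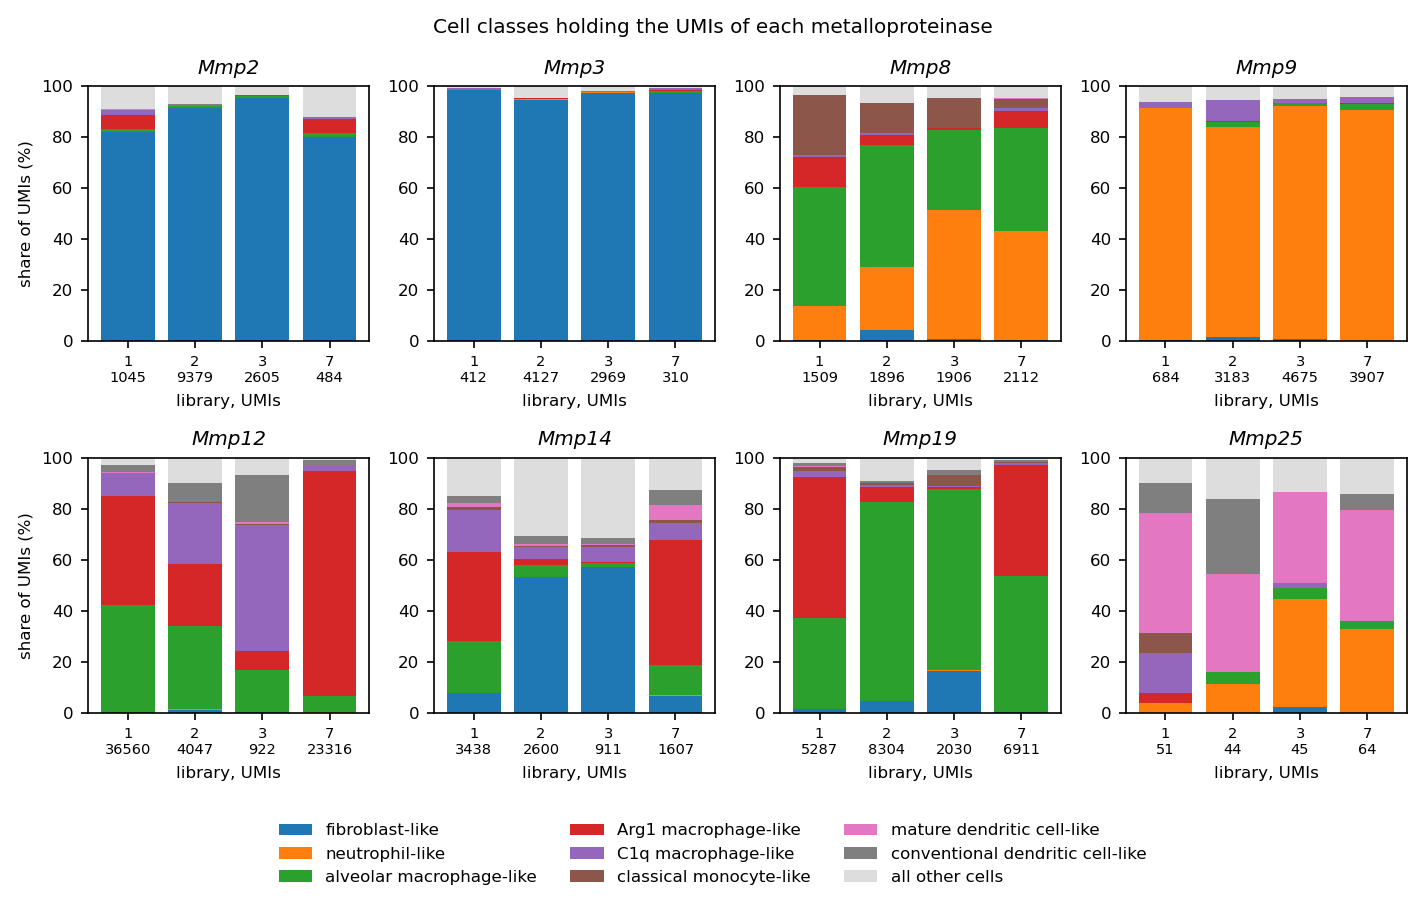
Share (%) of the UMIs of each gene that lay in each cell class (color), as 1 stacked bar for each of libraries 1, 2, 3 and 7 with the number of UMIs below it. Fibroblast-like cells fill most of each bar for Mmp2 and Mmp3 and neutrophil-like cells for Mmp9, while for Mmp12 the Arg1 macrophage-like share runs from 7.59% in library 3 to 88.4% in library 7.

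The levels were then set against all genes. For 6 of the 8 members, all except Mmp14 and Mmp19, the leading class was at least 2 times the next class. Among the 14809 genes with at least 100 UMIs this held for 25%, and the median ratio over those genes was 1.34. The members were chosen with earlier results of these data known. Of the other metalloproteinase genes, it held for 3 of the 7 with at least 100 UMIs. The 6 members include Mmp25, whose interval holds 1. Within the leading class, the highest library was at least 4 times the lowest for 2 of the 7 members that could be compared, Mmp12 and Mmp19, against 6.87% of 8040 genes in Arg1 macrophage-like cells. The place of Mmp19 in this count rested on library 3, whose cells of the class lack Arg1: without that library the ratio was 4.69 for Mmp12 and 1.39 for Mmp19, and the count was 1 in 8 of 15 alternatives. The ratio was under 4 for Mmp2 and Mmp3, against a background of 3.89% in fibroblast-like cells, for Mmp8 and Mmp9, against 3.63% in neutrophil-like cells, and for Mmp25, against 3.98% in mature dendritic cell-like cells. Mmp14 could not be compared: in lymphatic endothelial-like cells only 1 library had enough cells to count. Every gene there had a ratio of 1, so the background of 0% was fixed in advance. In alveolar macrophage-like cells 5.52% of genes, Mmp9, Mmp12 and Mmp14 among them, differed that much between libraries. Mmp9 there had 8.004 CPM in library 7 and no UMI in library 1, a ratio of 23.2 with library 1 set at a floor of 3 counts. The exact interval of library 1 reached 0.425 CPM, so 23.2 is not a lower bound. Of the 85 Mmp9 UMIs of alveolar macrophage-like cells in library 7, 62 lay in 11 cells of cluster 40. The difference thus lay mostly in a few cells, and the level was below the 15.5 CPM of B cell-like cells in library 7. In C1q macrophage-like cells the share was 2.91%. Mmp9 and Mmp19 were among these genes, with ratios of 24.3 (14.3 to 43.5) and 6.10 (3.02 to 13.6). Few cells carried them: the highest Mmp9 level, in library 7, was 90 UMIs in 10 of 75 cells, 36 of them in 1 cell. The Mmp19 ratio set 44 UMIs in library 7 against 10 in library 3.

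Members with the same source were compared cell by cell. Each cell was thinned to 1000 UMIs, which left 19604 cells and left out 1252 shallower ones, and cells with a UMI of both genes were set against the number given by independent detection within each library. Of 28 pairs, 9 were found together above that number and 8 below it, by their intervals. No share over other gene pairs was computed, and any 2 genes limited to the same class can give a ratio above 1 over all cells. Mmp2 and Mmp3 were found together in 97 cells against 12.3, a ratio of 7.90 (6.41 to 9.64), and Mmp8 and Mmp9 in 339 cells, a ratio of 6.10. Mmp2 with Mmp14 had a ratio of 3.94 and Mmp12 with Mmp19 a ratio of 3.43 (335 cells). Among the 8 pairs below it were those of fibroblast or macrophage genes with Mmp9, such as 0.084 for Mmp2 with Mmp9 and 0.178 for Mmp9 with Mmp12. Within a single class little of this remained: Mmp8 with Mmp9 had 1.15 (1.03 to 1.28) in neutrophil-like cells, Mmp12 with Mmp19 1.28 (1.11 to 1.46) in Arg1 macrophage-like cells and Mmp2 with Mmp19 1.45 (1.02 to 2.0) in fibroblast-like cells. No other pair had an interval above 1 in the classes tried, which were these 3 and alveolar macrophage-like cells. All 28 pairs were counted in each class, and the intervals were not adjusted for the number of pairs.

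**Figure D5:**
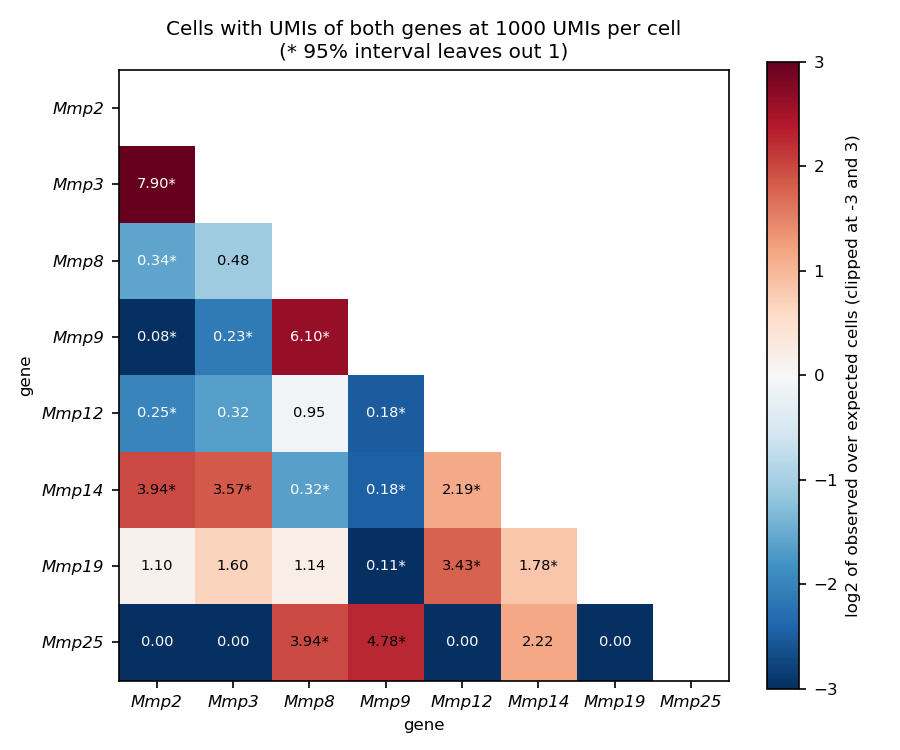
Ratio of cells with UMIs of both genes to the number under independent detection, printed in each square for the 28 pairs of the 8 genes at 1000 UMIs per cell and colored on a log2 scale, with a star where the 95% interval leaves out 1. Mmp2 with Mmp3 is highest at 7.90, and squares at 0 without a star are pairs of the sparse Mmp25 with no cell in common.

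The genes most like each member were those with the highest correlation across 57 combinations of class and library among 14877 genes. These points share 4 libraries and are described with no test. Among the fibroblast members, Mmp2 was closest to Sod3, an extracellular superoxide dismutase (r = 0.92), Adamtsl2 (0.92) and Col13a1 (0.92), and Mmp3 to Abca8a (0.93), Lrat (0.93) and Dpt (0.93). Mmp9 was closest to S100a9 (0.91), Retnlg (0.88) and S100a8 (0.87), all transcripts of neutrophils. Mmp8, whose UMIs were divided between neutrophil-like and macrophage-like cells, was closest to Clec4d (0.83), Tnfaip2 (0.81) and Gpat3 (0.80). Mmp12 was closest to Rnase2a (0.82), Gatm (0.81) and Gas2l3 (0.81), and Mmp19 to Rnh1 (0.89), Lrp12 (0.85) and Axl (0.83). The likeness was weakest for the sparse Mmp25, with Mxd1 (0.72) and Cdk5r1 (0.69), and Mmp14 was closest to Il11ra1 (0.81), 2510009E07Rik (0.81) and Plxnd1 (0.81).

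Inhibitors and activators of the family were taken from a fixed list. The TIMPs were highest in fibroblast-like cells for Timp1 (139 CPM), Timp2 (979 CPM) and Timp3, and in the smooth muscle or pericyte class for Timp4 (121 CPM). Timp1 was uneven there, at 377, 111, 99.7 and 669 CPM in libraries 1, 2, 3 and 7, whereas Timp2 was at 852, 938, 1079 and 1112 CPM. Arg1 macrophage-like cells, the leading class of Mmp12, had 119 CPM of Timp1 and 426 CPM of Timp2 but 3.18 CPM of Timp3. Neutrophil-like cells, the leading class of Mmp9, had 1.41 CPM of Timp1. The 3 parts of the known activation complex, Mmp2, Mmp14 and Timp2, were detected in the same cell in 961 of 1705 fibroblast-like cells (56.4%), between 47.0% in library 3 and 75.0% in library 7. Singly they were detected in 88.0%, 60.5% and 97.8% of these cells, and Mmp14 in 52.6% in library 3 and 78.8% in library 7. These shares are at full depth. No number under independent detection was computed, so joint detection beyond the single shares was not tested. Furin, which cuts the propeptide of the membrane-type members, was highest in basophil or mast cell-like cells (546 CPM) and had 161 CPM in Arg1 macrophage-like cells and 52.8 CPM in fibroblast-like cells. Plaur, the receptor of the plasminogen activator urokinase, was highest in neutrophil-like cells (717 CPM).

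Of 15 other metalloproteinase genes, 14 were listed in the table and 7 had at least 100 UMIs. Mmp15, a further membrane-type enzyme, was the single one to reach 100 CPM in any class, with 244 CPM in ciliated-like and 207 CPM in alveolar type 2 epithelial-like cells, so it marked epithelial classes that none of the 8 members led in. Mmp11 was highest in fibroblast-like cells (49.0 CPM) and Mmp13, a collagenase, in C1q macrophage-like (38.9 CPM) and Arg1 macrophage-like cells (31.5 CPM).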

How the data were processed

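Lungs of 4 mice were profiled with 10x Genomics 3′ libraries (the labels and the methods name different kit versions). The authors counted UMIs with Cell Ranger and STAR on mm10, down-sampled the reads to even out the libraries and deposited 1 table of raw UMI counts per gene and barcode, which holds 7 libraries and no group names. Members and gene lists were chosen with earlier results of these data known.

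Barcodes of libraries 1, 2, 3 and 7 with at most 10% mitochondrial UMIs were kept (80.0%, 87.2%, 86.3% and 90.3% of barcodes, 45221640, 76435633, 44826864 and 33298803 UMIs). Libraries 4, 5 and 6, rich in hemoglobin RNA, were left out. After scaling each cell to 10000 and taking logs, 30 components were made from 2000 variable genes without 26 Mmp and Timp symbols. Mutual nearest neighbors (20) aligned the libraries, and a graph of 20 neighbors was divided by the Leiden method at a resolution of 0.8 (Python 3.11.15, numpy 2.4.6, scipy 1.17.1, pandas 2.3.3, scikit-learn 1.9.0, leidenalg 0.10.2, python-igraph 0.11.9, Scrublet through scanpy 1.11.5, matplotlib 3.10.9). Names came from 28 marker lists and a scoring rule adjusted after a first look at the clusters, with at least 3 markers in 10% of the cells, and 640 cells stayed unnamed. Levels are summed UMIs of a class per 1000000 UMIs of the class, with exact Poisson intervals; shares have exact binomial intervals. UMIs mark molecules, so PCR copies are not counted again. In spreads, a library with under 3 counts was set at a floor of 3 counts. Classes with 50 cells were ordered and libraries with 20 cells entered a spread. With no replicates, no test was run. Clustering, intervals and thinning were tried on simulated counts. For the intervals, these counts were drawn from the distributions that the intervals assume. The naming of clusters, co-detection, library spread and likeness were not tried in this way.

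Named were the members, the 3 genes most correlated with each over combinations of class and library with 50 cells (1 of them is not reported here), the fixed lists of inhibitors, activators and other proteases, and the leading genes of clusters. Gene positions are those of GENCODE M21 on GRCm38. Alternatives covered the filters, doublets, alignment, resolution, components, gene choice, weighting, depth and each library left out. Chosen after seeing the data were the values without library 3 and the division of a class at 5% mitochondrial UMIs.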

Additional observations from a re-analysis of the deposited data

Results flagged for a closer look

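Libraries 4, 5 and 6, in which the hemoglobin gene Hbb-bs made up 200407, 186139 and 160900 CPM and the epithelial gene Sftpc at most 2 UMIs, were outside the comparisons above. Their barcodes held at least 5735, 3439 and 3946 UMIs, against lowest values of 304 to 501 in the libraries used. Shallower cells are thus missing from them, and neutrophil-like cells of the libraries used had a median of 2843 UMIs. Several members were found in libraries 4, 5 and 6 above a floor of 3 counts, which is 0.094 to 0.101 CPM. Mmp8 was at 179, 31.0 and 38.7 CPM and Mmp9 at 112, 71.5 and 99.8 CPM in libraries 4, 5 and 6. These are the members led by neutrophil-like cells in the other libraries, and S100a8, a neutrophil gene, was at 8807, 2430 and 4539 CPM. Library 4, highest for Mmp8, also had 1039 CPM of the granule gene Ngp, against 14.1 and 2.04 CPM in libraries 5 and 6, and 310 CPM of Ltf, against 8.79 and 2.57 CPM.

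Mmp19 was at 5.74, 7.28 and 5.51 CPM, Mmp25 at 2.23, 0.471 and 0.66 CPM and Mmp14 at 1.08, 0.251 and 1.02 CPM. Mmp12 was found in library 5 at 0.345 CPM, from 11 UMIs in 2 cells. Mmp2 and Mmp3, the fibroblast-like members, had 0 UMIs in all 3 libraries.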

How the results depend on the processing

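Over 15 alternatives, the leading class was kept for 7 or 8 of the 8 members. Mmp14 was the exception: it was led by fibroblast-like cells with 15 principal components or the mean of library levels, and by Arg1 macrophage-like cells with the mean of single-cell levels or without library 2. Between 5 and 8 members were at least 2 times the next class. The count of members that differed at least 4 times between libraries, 2 in the report, was 1 with UMIs and genes within the mean and 2 standard deviations, a mitochondrial limit of 5%, Scrublet calls left out, no alignment, a resolution of 1.5, Mmp and Timp genes kept for clustering or cells thinned to 1000 UMIs, and between 1 and 2 when each library was left out, with 1 without library 3. The cause was not tested. Pairs found together above independent detection numbered 8 to 12 over 13 alternatives.

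Of 119 recomputed levels, 50 lay inside the 95% interval of the reported level and 69 outside. Mmp12 in Arg1 macrophage-like cells ranged from 1058 CPM, with a mitochondrial limit of 5% and new clusters, to 3763 CPM, as a mean of single cells. With clusters kept, it was 3387 CPM in cells with at most 5% mitochondrial UMIs and 2737 CPM above. This order held in libraries 1 and 7 but was reversed in libraries 2 (604 and 1104 CPM) and 3 (223 and 950 CPM). With 15 components the fibroblast-like class held 8.82% of Mmp2 and 8.98% of Mmp3 UMIs. Its lead for these genes, counted above as kept, thus rested there on a small part of the UMIs, as unnamed cells were not ranked. The neutrophil-like share of Mmp8 ranged from 28.7% to 63.3%. The Mmp19 share of Arg1 macrophage-like cells ranged from 20.5% to 64.6%, and the level of Mmp14 in lymphatic endothelial-like cells from 122 to 242 CPM. Depth limits Mmp25 (204 UMIs), the eosinophil-like cells and Mmp14 in lymphatic endothelial-like cells.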

Other observations

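Other matrix-degrading proteases that the study names lay partly in the same cells. The cathepsin genes Ctss, Ctsl and Ctsk, lysosomal cysteine proteases that can cut elastin or collagen, were highest in Arg1 macrophage-like cells, the leading class of Mmp12 and Mmp19, at 7994, 2313 and 808 CPM. By libraries 1, 2, 3 and 7, Ctsl was at 1454, 892, 536 and 3589 CPM there, so that, as with Mmp12, libraries 1 and 7 stood above libraries 2 and 3. Ctss was at 10398, 5467, 4468 and 6076 CPM and Ctsk at 514, 375, 200 and 1234 CPM. The values of library 3 came from the 61 cells without an Arg1 UMI. How many other genes of this class stood higher in libraries 1 and 7 was not counted. Alveolar macrophage-like cells had 3878 CPM of Ctss and 545 CPM of Ctsk. The paper reported high Ctsl in eosinophils of its emphysema model. Its eosinophil clusters were high in Alox15, Prg2, Epx, Il5ra and Ccr3, and matched sorted eosinophils. They also expressed C1qa, Ms4a7, C3ar1 and Ctsl. In tissue, RNA of Rnase2a, C1qa and Alox15 lay in cells stained for ECP, used there as an eosinophil marker. The protein of Ctsl was also seen in eosinophils, and its rise after PPE was absent in eosinophil-deficient mice. Here Ccr3, Prg2 and Alox15 were among the leading genes of the eosinophil-like cells, which had 82.5 CPM of Ctsl and a median of 566 UMIs. That level was pooled over libraries 1, 2, 3 and 7 and rests on a class of only 169759 UMIs. No library could be assigned to the emphysema model, so it is not a like measure to the paper's. Rnase2a, C3ar1 and Ctsl were among the leading genes of Arg1 macrophage-like cells, and C1qa and Ms4a7 among those of C1q macrophage-like cells. Rnase2a was also a leading gene of alveolar macrophage-like cluster 11. Whether any of these classes holds the same cells as the paper's eosinophil clusters was not tested. Elane, the neutrophil elastase gene, had 610 UMIs in 11 cells.

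At the finer clustering, a cluster of 90 conventional dendritic cell-like cells led by Retnla and Fcrls had 1675 CPM of Mmp12, against 245 CPM in a cluster of 511 conventional dendritic cell-like cells led by Cd209a and Mgl2. C1qb was also among the leading genes of the former. Both C1qb and Fcrls were leading genes of the C1q macrophage-like cells as well, so they go against the name of that cluster. Its level of Mmp12 is therefore not given as one of dendritic cells.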
